A study of Sus scrofa with 2 samples.

Results

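The 6 actin genes of the pig were examined in PSI, a clone of enteric smooth muscle cells derived from the ileum. The members were taken by symbol: the pig gene names ACTG1, ACTB, ACTA2, ACTG2, ACTA1 and ACTC1 were matched to the identifiers of the deposited table. All 6 were found, out of 25880 identifiers, 14857 of which carried a symbol. The cells grew in DMEM medium supplemented with serum and antibiotics, and duplicate RNA-seq libraries were built from TRIzol-extracted total RNA with a NEBNext Ultra kit. The series holds 1 group of 2 libraries from 1 clone, so it offers no other genotype, treatment, time or tissue to set the clone against. Levels are FPKM, fragments scaled to the length of the gene model and to the library total, so that genes of different length can be set side by side. The library totals behind them were 35176565 and 32217729. Each mean is over both libraries with its SD (n = 2). The labels name no separate cultures behind the duplicates, so this spread, and any difference between the libraries, may be technical. The p-values given below were computed from read counts, not from this spread, and cover counting error only. Of the smooth muscle genes read for the labelled cell type, several were abundant (CALD1, TPM1, TPM2, CNN1). In contrast, TAGLN, DES and MYH11 were low, and MYOCD and KCNMB1 were listed at 0. Values are per gene and do not tell the transcripts of a gene apart.

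Actin is the globular protein that polymerises into the thin filaments of every animal cell. Vertebrates carry 6 genes for it, and the proteins differ in few residues, many of them near the amino terminus. ACTB and ACTG1 encode the beta- and gamma-actin of the cytoplasm, found in nearly all cells. ACTA2 encodes the alpha-actin typical of vascular smooth muscle, also made by myofibroblasts, and ACTG2 the gamma-actin typical of the muscle of gut and other hollow organs. ACTA1 and ACTC1 encode the alpha-actins of skeletal and cardiac muscle. Free actin monomers hold the coactivators MRTFA and MRTFB away from the transcription factor SRF, which in turn binds the promoters of actin genes.

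The clone expressed 4 of the 6 actin genes at high levels, 1 at about 1 FPKM and 1 was listed at 0. The order was ACTG1, ACTB, ACTA2, ACTG2, ACTA1 and ACTC1 in both libraries, and no member's values overlapped those of the next. A level of 1 FPKM in both libraries, used here as the detection level, was reached by 4 of the 6 members. It was reached by 40.9% of all identifiers and by 61.5% of those with a symbol. Detection at 0.5 FPKM would add ACTA1, and detection at 5 FPKM would leave the same count of 4.

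**Figure D1:**
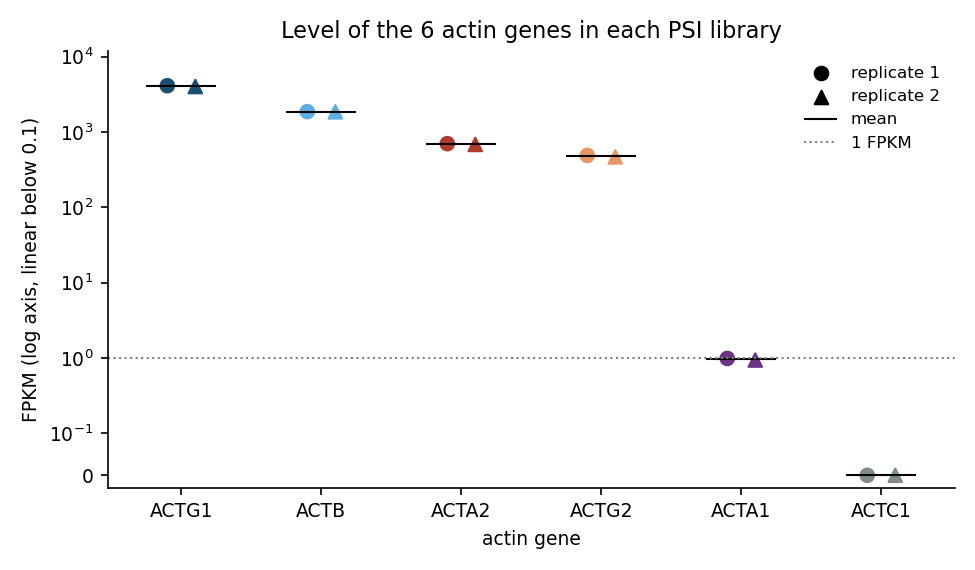
FPKM of each actin gene (y axis, logarithmic above 0.1 and linear below) in replicate 1 (circles) and replicate 2 (triangles) of the PSI clone, with the mean as a horizontal line and 1 FPKM as a dotted line. The 4 abundant genes lie between 468 and 4124 FPKM, ACTA1 lies just under 1 FPKM and ACTC1 at 0.

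Of the cytoplasmic genes, ACTG1 (ENSSSCG00000028355) had 4124 FPKM in replicate 1 and 4020 FPKM in replicate 2, a mean of 4072 ± 73.5 (SD, n = 2). It was the member with the highest level and took rank 5 of the whole table in replicate 1 and rank 4 in replicate 2. ACTB (ENSSSCG00000007585) had 1868 and 1854 FPKM, a mean of 1861 ± 9.76, at rank 13 in each library. The coefficient of variation between the libraries was 0.525% for ACTB and 1.81% for ACTG1. The median over all 10738 genes whose mean reached 1 FPKM was 2.62%. ACTG1 stood at 2.21 times ACTB in replicate 1 and 2.17 times in replicate 2 (mean 2.19 ± 0.0280). Gamma-actin was thus the more abundant of the cytoplasmic transcripts per length in both libraries.

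Of the smooth muscle genes, ACTA2 (ENSSSCG00000010447) had 702 FPKM in replicate 1 and 685 FPKM in replicate 2, a mean of 693 ± 11.8 (SD, n = 2), at rank 46 in each library. ACTG2 (ENSSSCG00000008294) had 489 and 468 FPKM, a mean of 479 ± 15.0, at rank 84 in replicate 1 and rank 86 in replicate 2. The vascular type therefore exceeded the enteric type in this clone from the gut, by 1.43 times in replicate 1 and 1.46 times in replicate 2. The spread of this ratio between the libraries was 0.0207 (SD) around a mean of 1.45. ACTB stood 2.69 ± 0.0315 times above ACTA2, and ACTG1 stood 5.87 ± 0.00641 times above it.

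Of the striated muscle genes, ACTA1 (ENSSSCG00000010190) had 0.989 FPKM in replicate 1 and 0.941 FPKM in replicate 2, a mean of 0.965 ± 0.0337 (SD, n = 2). At the shortest model length these values rest on 39 and 34 reads. The exact Poisson 95% intervals were then 0.703 to 1.35 and 0.652 to 1.32 FPKM and cover counting error only. Both intervals include 1 FPKM, so at that length the depth cannot place ACTA1 on either side of the detection level. A length of 2242 bp, with 78 and 68 reads, also lies within the span of ACTA1 and would give narrower intervals, which were not computed. ACTA2 exceeded ACTA1 by 709 times in replicate 1 and 728 times in replicate 2. ACTC1 (ENSSSCG00000004803) was listed at 0 in both libraries, like 9553 identifiers of the table in all. With no reads its model length is unknown, and an upper limit on its FPKM was not computed.

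Low values need care in this table, as the genes next to ACTA1 in level show. The symbol directly above it was SRP14, a subunit of the signal recognition particle used by all cells, at 0.936 and 0.995 FPKM. The symbol directly below was ZSWIM7 at 0.934 and 0.996 FPKM. A level near 1 FPKM therefore does not show that a gene is silent. These neighbours do not bear on a listing at 0, which was not tested and is not read as silence either. The high members had abundant neighbours: ACTG1 lay between COX3 (4137 ± 181) and TMSB10 (3846 ± 47.8), and ACTB between VIM (1951 ± 26.2) and ATP6 (1724 ± 58.9). ACTA2 lay between YBX1 (705 ± 0.860) and PKM (687 ± 9.59), and ACTG2 between RPS3 (480 ± 13.2) and EIF4G2 (477 ± 3.34). The gaps of ACTA2, ACTG2 and ACTA1 to both their neighbours, and of ACTG1 to COX3, were within the spread between the libraries. The gaps of ACTB to its neighbours were not. With 2 libraries of 1 group, no likeness of pattern between genes could be computed.

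**Figure D2:**
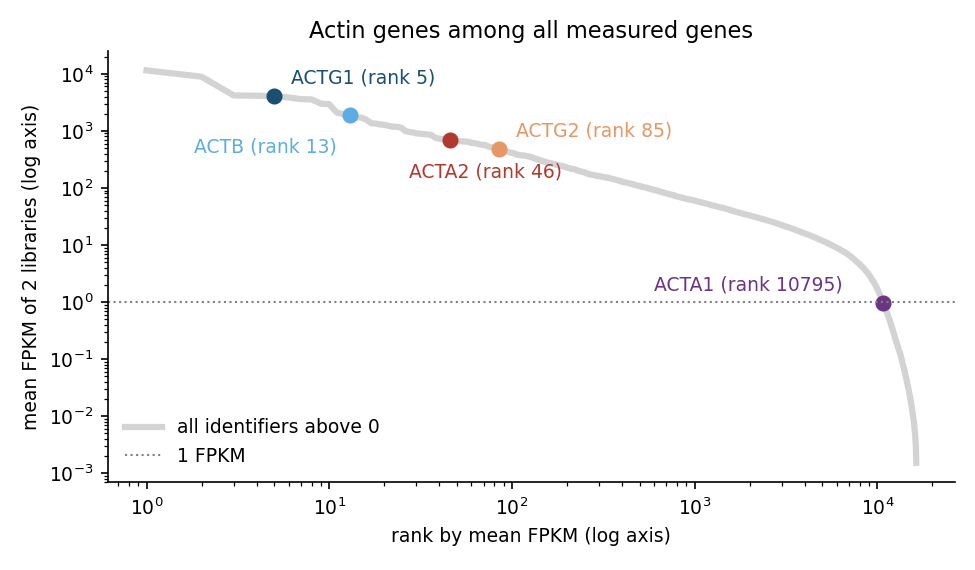
Mean FPKM over both libraries (y axis, logarithmic) against rank (x axis, logarithmic) for all identifiers above 0 (grey line), with 5 actin genes marked. The cytoplasmic genes lie at ranks 5 and 13, the smooth muscle genes at ranks 46 and 85, and ACTA1 at rank 10795. ACTC1, at 0, is not drawn.

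Together the 6 genes summed to 7184 FPKM in replicate 1 and 7028 FPKM in replicate 2, which was 1.95% and 1.91% of the summed FPKM of the table. ACTG1 held 57.4% of the actin sum in replicate 1 and 57.2% in replicate 2 (mean 57.3% ± 0.147). ACTB held 26.0% and 26.4% (26.2% ± 0.268). The cytoplasmic genes were thus the larger part of the pool, at 83.4% and 83.6%.

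ACTA2 held 9.77% of the actin sum in replicate 1 and 9.75% in replicate 2 (mean 9.76% ± 0.0144), and ACTG2 held 6.81% and 6.66% (6.74% ± 0.106). The smooth muscle genes together held 16.6% and 16.4%, and the cytoplasmic sum stood 5.06 ± 0.0444 times above the smooth muscle sum. ACTA1 held 0.0138% and 0.0134%, and ACTC1 held 0. By class of actin, the gamma genes ACTG1 and ACTG2 held 64.2% and 63.9%. Among the 4 muscle actins alone, ACTA2 held 58.9% in replicate 1 and 59.4% in replicate 2, ACTG2 held 41.1% and 40.6%, and ACTA1 held 0.0830% and 0.0816%. All shares differed between the libraries by under 1 percentage point.

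The shares depend on the gene models by which the authors divided. The shortest model lengths under which both values are whole reads were 1195 bp for ACTG1, 848 bp for ACTB, 2366 bp for ACTA2, 2101 bp for ACTG2 and 1121 bp for ACTA1. Any whole multiple of such a length gives whole reads too. A length of 848 bp is shorter than the coding sequence of an actin, and 1696 bp, the next multiple, also lies within the 6109 bp that ACTB spans in RefSeq. The true length is not settled by the values. For ACTG1 the only other multiple within its span was 2390 bp.

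Reads are not corrected for length, and by reads the balance moved towards the smooth muscle genes, whose recovered models are longer. At the shortest lengths ACTG1 had 173349 and 154765 reads and ACTB 55731 and 50666. ACTA2 had 58388 and 52209 reads, ACTG2 36157 and 31684, and ACTC1 none. ACTG1 then held 53.6% and 53.5% of the actin reads and ACTB 17.2% and 17.5%, below ACTA2 at 18.0% in each library. With ACTB at 1696 bp the ACTB share became 29.4% and 29.8% and lay above the 15.4% of ACTA2 in each library. The order of ACTB and ACTA2 by reads therefore turned on the length assigned to ACTB, whereas the deposited FPKM do not change with the recovered length. ACTG1 led in each of these forms.

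**Figure D3:**
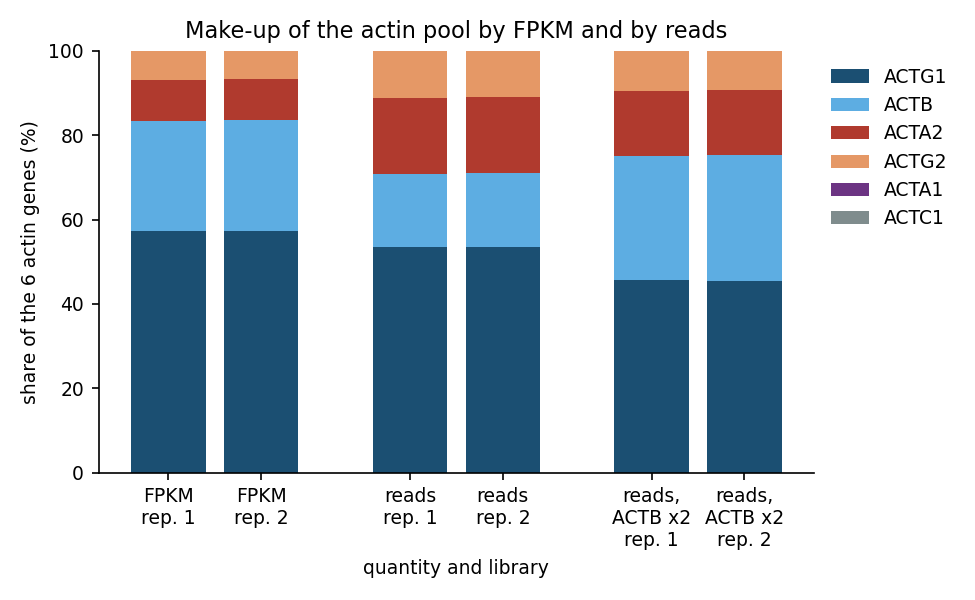
Share of each gene in the 6 actin genes (y axis, percent) in each library, by FPKM (left pair of bars), by recovered reads at the shortest lengths (middle pair) and by recovered reads with ACTB at its next length (right pair). ACTG1 is the largest part in every bar, from 45.5% to 57.4%, and the bars of each pair differ by under 1 percentage point per gene. ACTA1 and ACTC1 are too small to be seen.

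The duplicates were also compared read by read, which asks whether the libraries differ beyond counting error and compares no condition. ACTG1 was 1.03 times higher in replicate 1 (log2 ratio of replicate 2 to replicate 1 of -0.04), with adjusted p = 3.54e-10 by a two-sided exact binomial test with Benjamini-Hochberg adjustment. ACTG2 was 1.05 times higher in replicate 1 (log2 ratio -0.06, adjusted p = 6.12e-06 by the same exact test). ACTA2 was 1.02 times higher (log2 ratio -0.03, adjusted p = 0.0123, exact). ACTB (log2 ratio -0.01, adjusted p = 0.790, exact) and ACTA1 (log2 ratio -0.07, adjusted p = 1, exact) did not pass. ACTC1 had no reads to test.

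Thus 3 of the 5 tested members passed, all with the higher value in replicate 1 and 0 with the higher value in replicate 2. Of all 16327 genes tested, 182 passed, or 1.11%, with 0.545% higher in replicate 1 and 0.57% higher in replicate 2. The pass rate rose with depth: 53.5% of the 43 genes with 100000 or more reads passed, a class that holds ACTG1, ACTB and ACTA2. It was 6.58% in the class from 10000 to 100000 reads, which holds ACTG2. The members' count is therefore read against genes of the same depth, and their differences of 1.02 to 1.05 times were small beside any fold between members. With ACTB at 1696 bp, which gives it more reads, its adjusted p was 0.603 by the exact test.

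**Figure D4:**
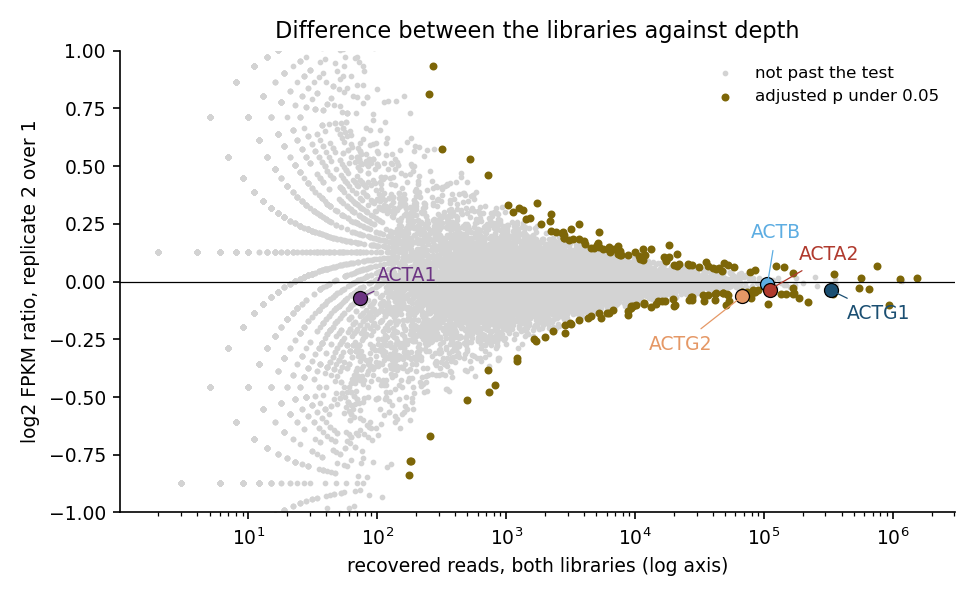
Log2 ratio of FPKM, replicate 2 over replicate 1 (y axis), against the recovered reads of both libraries (x axis, logarithmic), for 14732 genes above 0 in both. Of these, 963 lie outside the axis limits. Genes past the exact binomial test are olive, and 5 actin genes are marked, all slightly below 0.

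RefSeq places the 6 genes on 4 chromosomes, with no members side by side. On the Sscrofa11.1 build ACTG1 lies on chromosome 12 from 1320355 to 1323219. ACTB and ACTG2 both lie on chromosome 3, from 4084275 to 4090383 and from 69097366 to 69121542. ACTA1 and ACTA2 both lie on chromosome 14, from 60412651 to 60415687 and from 100868145 to 100886732, and ACTC1 lies on chromosome 1 from 136281119 to 136286551. All 6 are protein-coding, and none overlaps another RefSeq gene. Identifiers and positions were joined by symbol, not by position. The coding sequences of the 6 genes are alike, and reads that align equally well to several of them may have been dropped or assigned to 1 copy. This was not tested here.

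The other actin-like and actin-related genes, most of them subunits of larger complexes, lay below the 4 abundant actins. A single identifier with the symbol was found for 17 of the 21 genes in this list, with 9 at 1 FPKM or more in each library and 7 listed at 0. These 9 were 52.9% of the genes found, beside 61.5% of identifiers with a symbol. The median was 3.46 FPKM. The highest were ACTR3 (189 ± 1.09 FPKM, SD, n = 2) and ACTR2 (146 ± 3.20), the paired cores of the Arp2/3 complex that branches filaments. ACTR1A, the filament of the dynein cofactor dynactin, had 85.3 ± 0.667. ACTL6A, a subunit of chromatin remodelling complexes, had 14.4 ± 0.722. ACTBL2, which encodes an actin very like ACTB, was listed at 0 in both libraries, as were ACTL7A, ACTL7B, ACTL8, ACTL9, ACTRT1 and ACTRT2. None of the 17 passed the test between libraries.

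Genes that fold and modify new actin were nearly all present. Of 26 in the list 22 were measured and 20 reached 1 FPKM in both libraries. Newly made actin is folded by the chaperonin CCT, and CCT8 (205 ± 4.50 FPKM, SD, n = 2), CCT3 (198 ± 4.19) and CCT5 (101 ± 0.203) were the highest members. SETD3, which methylates a histidine of actin, had 13.1 ± 0.238, and ACTMAP, the protease that trims its amino terminus, had 1.49 ± 0.00891. NAA80, which acetylates the trimmed end, had 0.657 ± 0.0953 and CCT6B, a testis form of a CCT subunit, had 0.134 ± 0.0189, the pair below the detection level. The list's median was 32.2 FPKM. The median of 0.167 over all identifiers is of an unlike set, since it includes those without a symbol and 9553 listed at 0. At 1 FPKM in both libraries stood 90.9% of the measured list genes, beside 61.5% of identifiers with a symbol. None of the list's genes passed the test between libraries.

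In the SRF pathway, SRF and MRTFA were both well above the detection level and the muscle-specific coactivator gene was listed at 0. SRF had 47.6 ± 0.900 FPKM (SD, n = 2), and TEAD1, a factor that also binds muscle promoters, had 37.4 ± 0.576. MRTFA had 26.0 ± 0.809 and MRTFB 3.82 ± 0.173. MYOCD, the myocardin gene, was listed at 0 in both libraries, as was GATA4. Of 15 genes 13 were measured and 8 reached 1 FPKM in each library, with a median of 3.82 FPKM. These 8 were 61.5% of the measured list, the same share as the 61.5% of identifiers with a symbol. The count therefore does not set the pathway apart. ELK4, an SRF partner of the ternary complex family, was the single gene of the list that passed the test between libraries, at 8.68 and 10.1 FPKM (adjusted p = 0.0142, exact binomial test, higher in replicate 2). Among all genes tested 1.11% passed.

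The partners of actin in smooth muscle filaments were uneven. Of 17 genes 16 were measured, 13 were at or above 1 FPKM in each library, and the median was 34.8 FPKM. These 13 were 81.25% of the measured list, beside 61.5% of identifiers with a symbol. The highest were CALD1 (456 ± 1.68 FPKM, SD, n = 2), which encodes the thin filament protein caldesmon, and the tropomyosin genes TPM1 (427 ± 17.2) and TPM2 (377 ± 10.6). ACTA2 stood 1.52 ± 0.0314 times above CALD1, 1.62 ± 0.0379 times above TPM1 and 1.84 ± 0.0207 times above TPM2. CNN1, which encodes calponin, was lower, so that ACTA2 stood 2.73 ± 0.0573 times above it, and 5.63 ± 0.0831 times above MYL9, the regulatory myosin light chain. TPM1 and TPM2 were the 2 genes of the list that passed the test between libraries, both higher in replicate 1. Among all genes tested 1.11% passed. In the class from 10000 to 100000 reads, which holds TPM1 and TPM2, 6.58% passed.

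Several defining smooth muscle genes were low beside the smooth muscle actins. TAGLN, the gene of the actin-binding protein transgelin, had 5.34 and 5.58 FPKM, so that ACTA2 stood 127 ± 6.24 times above it. MYH11, which encodes the myosin heavy chain of smooth muscle, had 0.461 and 0.522 FPKM under the identifier that carries its symbol. DES, the desmin gene, had 2.74 and 3.06 FPKM, and the potassium channel subunit gene KCNMB1 was listed at 0. By the FPKM of the identifiers that carry these symbols, the level of the smooth muscle actins was not shared by all markers of the labelled cell type. MYL6, a light chain of nonmuscle and smooth muscle myosin, also had only 5.62 and 6.28 FPKM. Whether the identifiers of TAGLN, MYH11, DES and MYL6 held all reads of these genes was not tested, so the ratio of ACTA2 to TAGLN carries the same limit.

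The low ACTA1 and ACTC1 values stood beside low levels of other striated muscle genes. Of 19 measured skeletal muscle markers 1 reached 1 FPKM in both libraries, TNNT1, a slow troponin T gene, at 3.13 and 3.49 FPKM. That was 5.26% of the measured list, beside 61.5% of identifiers with a symbol. TNNC2, a troponin C gene, had 0.902 and 1.46 FPKM, and MYL1, a light chain gene, 0.433 and 0.627. Listed at 0 were 10 of the 19, among them MYOD1 and MYOG, the master regulators of skeletal muscle. The list's summed level was 4.95 and 6.07 FPKM and its median 0.

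Of 14 measured cardiac markers 2 reached 1 FPKM in both libraries, NPPB, a natriuretic peptide gene, at 10.9 and 11.7 FPKM and TBX20, a heart transcription factor gene, at 3.43 and 3.55. That was 14.3% of the measured list, beside 61.5% of identifiers with a symbol. RYR2, a calcium release channel gene, had 0.827 and 0.888 FPKM. TNNT2, the cardiac troponin T gene, had 0.113 FPKM in replicate 1 and 0 in replicate 2, and MYH6, a cardiac myosin gene, had 0.0235 and 0.0103. MYH7 was not analysed here. The list's summed level was 15.5 and 16.3 FPKM and its median 0.0206. No gene of either list reached the level of the 4 abundant actins.

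**Figure D5:**
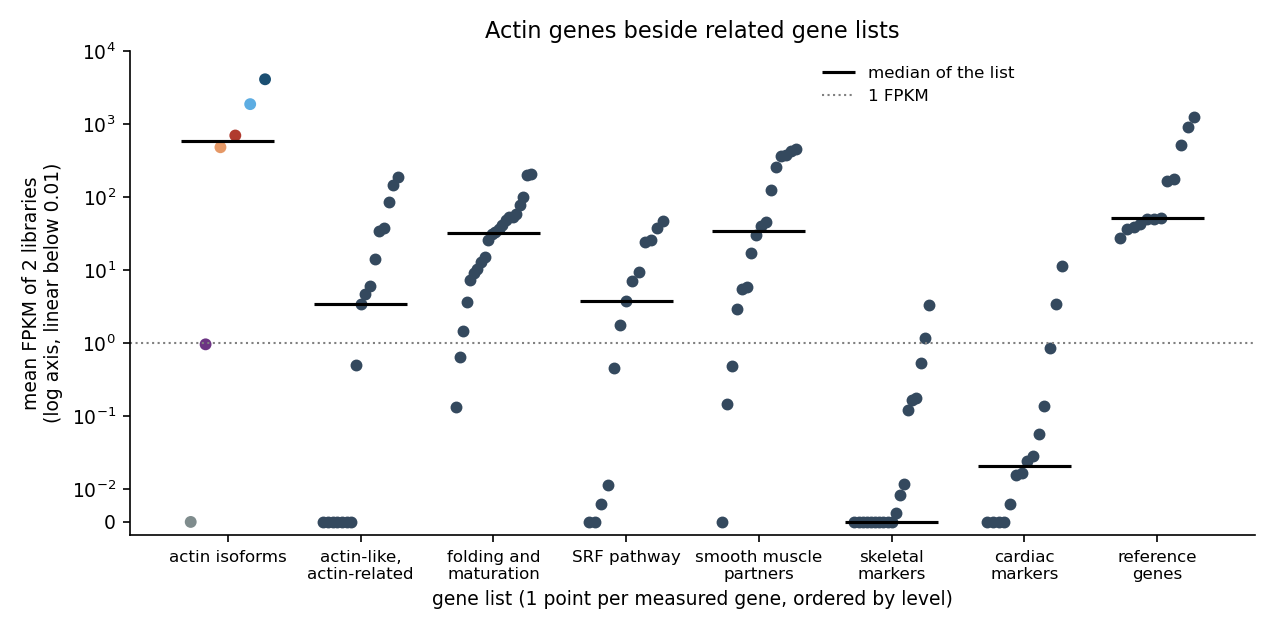
Mean FPKM over both libraries (y axis, logarithmic above 0.01 and linear below) of each measured gene in 8 lists (x axis), with the median of each list as a horizontal line and 1 FPKM as a dotted line. The 4 abundant actins lie above every gene of the other lists except RPLP0 and GAPDH of the reference genes, which lie above the smooth muscle actins, and RPL4, which lies above ACTG2. The skeletal and cardiac lists lie mostly below 1 FPKM.

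ACTB is widely used to normalise transcript levels, so it was set beside other reference genes. Of 16 such genes 12 were measured and all 12 reached 1 FPKM, with a median of 51.3 FPKM, from HPRT1 at 27.4 ± 0.232 FPKM (SD, n = 2) to RPLP0 at 1235 ± 0.661. Among identifiers with a symbol 61.5% reached 1 FPKM in both libraries. GAPDH, a glycolytic enzyme gene, had 894 ± 6.63, and ACTB exceeded it by 2.08 times in replicate 1 and 2.09 times in replicate 2. ACTB exceeded RPLP0, a ribosomal protein gene, by 1.51 ± 0.00710 times on average. RPL4 (515 ± 9.14) was the single one of the 12 that passed the test between libraries, with the higher value in replicate 1. In its class from 10000 to 100000 reads 6.58% of genes passed.

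Markers of other cells that make actins were also read. PSI is labelled a clone, and whether it held any other cells was not tested. In bulk RNA fewer cells of a type and less RNA per cell cannot be told apart. Beside each count below stands the 61.5% of identifiers with a symbol that reached 1 FPKM in both libraries. Epithelial markers reached 1 FPKM in 0 of 8 measured genes, with summed levels of 0.0800 and 0.0928 FPKM. The highest were KRT8, KRT18 and EPCAM, and CDH1 and VIL1 were listed at 0. Enteric neuron and glia markers did so in 0 of 7, with sums of 0.956 and 1.07 FPKM, led by RET, SOX10 and GFAP, and with ELAVL4 at 0. Endothelial markers did so in 1 of 4, PECAM1 at 1.92 and 1.60 FPKM, and CDH5, KDR and TIE1 were listed at 0. Leukocyte markers did so in 2 of 6, CD14 and CD68, followed by CD74, with sums of 4.40 and 4.45 FPKM and PTPRC at 0.

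Markers of interstitial cells of Cajal, the pacemaker cells of the gut, reached 1 FPKM in 1 of 3 genes. This was ETV1 (14.3 ± 0.353 FPKM, SD, n = 2), with ANO1 at 0.792 ± 0.0387 and KIT at 0.573 ± 0.135. Of the mesothelial list 2 of 4 genes were measured, and WT1 (4.75 ± 0.0715) and KRT7 (2.27 ± 0.348) both reached it.

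Fibroblasts and vascular mural cells can also make ACTA2, and their lists had higher sums. Fibroblast markers reached 1 FPKM in 7 of 11 genes, or 63.6%, with sums of 478 and 461 FPKM. That share is near the 61.5% of identifiers with a symbol. Most of the sum was S100A4 (408 ± 11.9 FPKM, SD, n = 2), followed by SFRP2 (47.5 ± 0.143) and TCF21 (3.90 ± 0.197), and PI16 was listed at 0. The median of the fibroblast list was only 2.20 FPKM. PDGFRA had a mean of 2.24 FPKM, DCN 2.20 and LUM 1.63, while FAP had 0.156, DPT 0.132 and CD34 0.00275. Pericyte and mural markers reached 1 FPKM in 4 of 8, or 50%, a share below that 61.5%, with sums of 167 and 172 FPKM. The highest were CSPG4 (101 ± 2.06), PDGFRB (44.3 ± 1.30) and MCAM (14.5 ± 0.648), and ABCC9 was listed at 0. The median of the mural list was 4.62 FPKM, and RGS5 had a mean of 0.00256 FPKM, KCNJ8 0.00307 and HIGD1B 0.0842. The labels give a clone, so these values are levels in that clone. Whether it held any fibroblasts or mural cells was not tested.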

How the data were processed

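RNA-seq was measured in 2 libraries of 1 clone. The authors deposited FPKM, 1 column for each library. Per the submitters' processing notes, TopHat2 2.0.12 and HTSeq 0.6.1 were used with the Sscrofa11.1 build. No annotation release or strand setting is given in the sources used here. Symbols came from a table of pig gene names, and positions from RefSeq by symbol. A list gene counted as measured when a single identifier carried its symbol. Genes not measured may therefore still be present under an identifier without that symbol or under several.

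Since FPKM move in steps of 1 read, reads and library totals could be recovered. For each gene the smallest model length between 50 and 30000 bp was taken for which the FPKM of both libraries were whole reads within 1.2 times their rounding. All 16327 genes above 0 gave whole reads. The RefSeq length came out for 11 of 12 mitochondrial genes and a divisor of it for ND3, so true reads may be a multiple of those recovered, which made up 90.8% of each total. A read in a 1 kb gene was worth 0.0284 or 0.0310 FPKM. Libraries were compared with a two-sided exact binomial test (scipy 1.17.1) under Benjamini-Hochberg adjustment over all genes at 0.05. It was run on simulated reads that held counting error and planted changes only. That run cannot show how the test behaves where libraries differ beyond counting error. PCR duplicates cannot be told from separate molecules, so p-values and intervals cover counting error only.

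Members and lists were chosen with earlier results of these data known. The rule named all members, their neighbours in level, the 3 highest genes of each list and the defining muscle genes. ACTL6A, the actin-like genes at 0, SETD3, ACTMAP, NAA80, CCT6B, GATA4, ELK4, MYL6, DES, KCNMB1, HPRT1 and the other markers at 0 were named after their values were seen. So were the fibroblast and mural markers beyond the 3 highest of their lists.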

Additional observations from a re-analysis of the deposited data

How the results depend on the processing

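Of 128 recomputed values 95 stayed within 1 SD of the libraries (levels, shares, ratios), within 1 SD or 1 place (ranks), within 1.5 times (counts) or on the same side of 0.05 (adjusted p of the 5 tested actins), and the other 33 moved further. For levels, shares and ratios with 2 libraries, leaving out either one stays within 1 SD by construction. Rescaling to TPM changes the unit, so the levels above 0 moved for that reason. The counts of 95 and 33 were thus partly set in advance. By recovered reads at the shortest lengths the order of ACTB and ACTA2 turned. Leaving out a library, FPKM ranged from 4020 to 4124 for ACTG1, 1854 to 1868 for ACTB, 685 to 702 for ACTA2 and 468 to 489 for ACTG2, and skeletal markers at 1 FPKM or more numbered 1 without replicate 2 and 2 without replicate 1. Rescaled to TPM, the levels were 11060 (ACTG1), 5056 (ACTB), 1883 (ACTA2), 1300.1 (ACTG2) and 2.62 (ACTA1). By recovered reads the shares were 53.5%, 17.4%, 18.0%, 11.06% and 0.0119% in the same order, and with member lengths of 1000 bp or more, chosen after seeing the data, 45.6%, 29.6%, 15.4%, 9.42% and 0.0101%. The ratio of reads was 3.08 (then 1.54) for ACTG1 to ACTB, 1.63 (both) for ACTA2 to ACTG2, 2.44 (then 3.03) for cytoplasmic to smooth muscle and 1516 (both) for ACTA2 to ACTA1. With a pseudocount of 1 FPKM the last was 353. Among nuclear genes with a symbol the ranks were 2 (ACTG1), 10 (ACTB), 33 (ACTA2), 60 (ACTG2) and 9242 (ACTA1). Detection at 0.5 FPKM gave 2 skeletal markers, and detection at 5 FPKM gave 0 skeletal and 1 cardiac. The test between libraries gave 235 genes when limited to means of at least 1 FPKM and 179 after scaling by the median ratio, against 182, and which genes other than the actins changed their call was not compared. RefSeq transcript lengths were not used here, so that alternative was not run. Depth limits ACTA1 and ACTC1, not the 4 abundant genes. No paired analysis was possible because the series holds 1 group.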
